A study of Gossypium with 24 samples.

Results

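The genes described here are 138 of the 60633 gene IDs counted in cotton seedling roots. They were chosen for differing from control roots in opposite directions in the 2 varieties after waterlogging had ended. At 24 h of recovery their level was higher in waterlogged than in control roots of variety 9001 and lower in waterlogged than in control roots of variety 4847. The measure used for the choice, R24, is the log2 ratio of the waterlogged to the control group mean at 24 h, with 0.5 added to each mean. Levels are CPM, counts scaled to a common library total. A member had an R24 of at least 0.8 in 9001 and of -0.8 or less in 4847, and in each variety the higher of its control and waterlogged means at 24 h was at least 2 CPM. The same rule with both signs turned round gave 47 genes. Since the 24 h libraries chose the members, every value that uses a 24 h library is given as a description with no test, and tests are given only for the libraries at 0 h, which the rule did not use.

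When soil is waterlogged, oxygen reaches the root too slowly for respiration, and root cells turn to fermentation, save energy and slow growth. Once the water drains, oxygen returns abruptly, reactive oxygen species form, and the root has to restart respiration, transport and growth. Varieties that tolerate waterlogging are known to differ from sensitive ones in this recovery phase as well as during the flood itself. Cultivated tetraploid cottons carry an A and a D set of chromosomes, so many genes exist as an A copy and a D copy, and the IDs here name the chromosome with its set.

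The study covered roots of four-leaf-stage cotton seedlings of 2 varieties, 9001 and 4847, which the submitters describe as tolerant of waterlogging and sensitive to it. All plants spent 96 h in darkness, with drained soil in the control groups and flooded soil in the waterlogged groups. Roots were taken when that period ended (0 h) or 24 h later, after renewed light for both treatments and drainage of the flooded plants (24 h). Each of the 8 groups had 3 libraries. Darkness was common to every group, and no group stayed dark for the further 24 h, so light, time and, in the waterlogged plants, drainage cannot be told apart in a change from 0 h to 24 h. The labels do not state if separate plants gave the 3 libraries of each group, and a p-value here reflects the spread among those libraries alone, possibly a technical one.

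The 3 libraries of waterlogged 4847 at 24 h held 21423479 to 22442564 counts, and the other 21 libraries held 36096441 to 39945111. The variation between libraries of a group beyond counting noise, as a biological coefficient of variation over all tested genes, was 14.4% in waterlogged 4847 at 24 h and 6.59% in waterlogged 9001 at 24 h. At 0 h this variation was 10.5% in waterlogged 4847 and 11.4% in waterlogged 9001, and it was 5.78% to 7.23% in the 4 control groups over both times. The lower depth and the wider spread fell on one of the groups that define the members. The part of the spread in the choice was not tested, and depth was looked at only by thinning. With every library thinned to 21000000 counts, an alternative added after the data had been seen, the rule chose 141 genes, of which 122 were among the 138.

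No file gives a gene name or description for an ID, so no member could be assigned to a pathway, and lists for fermentation, the GABA shunt, ethylene response, root cell types and leaf tissue could not be applied. In whole roots, fewer cells of a type and less RNA per cell cannot be told apart. The members are therefore described by their levels, their chromosomes and their responses. Of the 138 members, 4 are named by ID: the 2 with the largest R24 in 9001 and the 2 with the lowest R24 in 4847, among the 79 that reached at least 5 CPM in each variety and whose waterlogged and control libraries did not overlap at 24 h in either variety.

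At 24 h, R24 of the members in 9001 ran from 0.80 to 3.37 with a median of 0.95, against a median of -0.21 over the 50638 genes that passed the filter on low counts. In 4847 it ran from -4.19 to -0.80 with a median of -1.30, against -0.63 over all tested genes. All 138 members passed that filter. The size of R24 was larger in 4847 than in 9001 for 98 of the 138. At least a 2-fold difference, an R24 past 1 in size, was found for 57 members in 9001 and for 103 in 4847, and 41 had it in both.

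**Figure D1:**
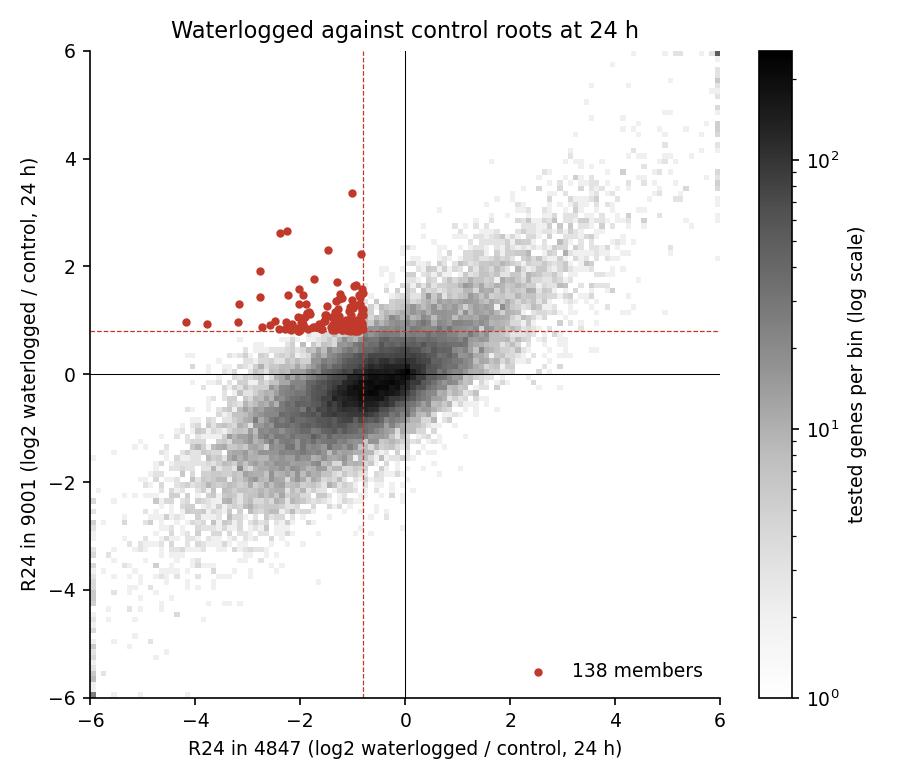
R24 (log2 of waterlogged over control at 24 h, with 0.5 CPM added) in 9001 on the vertical axis against R24 in 4847 on the horizontal axis. Grey bins count the 50638 tested genes on a log scale, with values past 6 drawn at the edge. Red points are the 138 members, which fill the upper left corner marked by the dashed lines at 0.8 and -0.8, with R24 up to 3.37 in 9001 and down to -4.19 in 4847.

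The member nearest the limit in 9001 had an R24 of 0.802 there and -0.984 in 4847, and the nearest gene left out had 0.795 and -1.58. At the limit in 4847 the nearest member had -0.804 there and 0.848 in 9001, and the nearest gene left out had -0.798 and 0.953. Within 0.1 of the limit in 9001 lay 51 members and 55 genes left out, and within 0.1 of the limit in 4847 lay 20 members and 30 genes left out. A further 41 genes met both limits on R24 but were below 2 CPM. The edge of the set is therefore crowded on the 9001 side.

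In 9001 the 3 waterlogged libraries at 24 h lay above the 3 control libraries for 137 of the 138 members, and this held for 25.3% of all tested genes. In 4847 the 3 waterlogged libraries lay below the 3 control libraries for all 138 members, and for 62.8% of all tested genes. Both held for 137 members and 6.41% of tested genes, and since the rule used these libraries nothing is read from the counts. The member that overlapped in 9001, on chromosome A09, had 1.02 ± 0.325 CPM in its control group and 2.24 ± 0.755 CPM when waterlogged (SD, n = 3).

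How far the members lay from the control in each variety depends on the scaling of the libraries. TMM scaling assumes that most genes keep their level. Relative to library totals it raised the log2 ratio of waterlogged to control at 24 h by 0.27 in 9001 and 0.71 in 4847. Those values are for ratios without the added 0.5 CPM, and the median R24 of the members rose by less. With TMM scaling that median was 1.18 in 9001 and -0.65 in 4847, beside 0.01 and -0.08 over all tested genes. With RLE scaling the medians were 1.11 and -0.73. All 138 members kept both signs under either scaling, but only 55 of them stayed past -0.8 in 4847 with TMM, while all 138 stayed past 0.8 in 9001. With either scaling the shift in 4847 was smaller than the 0.8 of the rule, and the shift in 9001 was upward. The signs could therefore not change, and keeping them is no check on the scaling.

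The typical member had a low to moderate level. Its median over the 138 at 24 h was 4.43 CPM in control and 10.0 CPM in waterlogged 9001, and 6.22 CPM in control and 1.97 CPM in waterlogged 4847. At 0 h the medians were 1.77 CPM in control and 0.876 CPM in waterlogged 9001, and 1.52 and 0.937 CPM in 4847. Per transcript length, 56 members reached 10 FPKM in waterlogged 9001 at 24 h, 25 in its control, 35 in control 4847 and 11 in waterlogged 4847. None of the members was under 1 CPM in waterlogged 9001 at 24 h, whereas 39 were in waterlogged 4847 at 24 h. The rule fixed this for 9001, since its floor of 2 CPM falls on the waterlogged group in 9001 and on the control in 4847. Nothing is therefore read from this contrast.

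Of all counts, the members took 0.331 ± 0.00246% in waterlogged 9001 at 24 h and 0.152 ± 0.00102% in control 9001 (SD, n = 3). In 4847 they took 0.0766 ± 0.00135% in waterlogged roots and 0.214 ± 0.000745% in the control at 24 h. At 0 h the share was 0.152 ± 0.00908% in waterlogged and 0.121 ± 0.000305% in control 9001, and 0.157 ± 0.00714% and 0.110 ± 0.00126% in 4847. At 0 h the waterlogged share thus lay above the control share while the median CPM lay below it. The D07 and D02 members described further on held means of 612 and 340 CPM in waterlogged 9001 at 0 h.

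**Figure D2:**
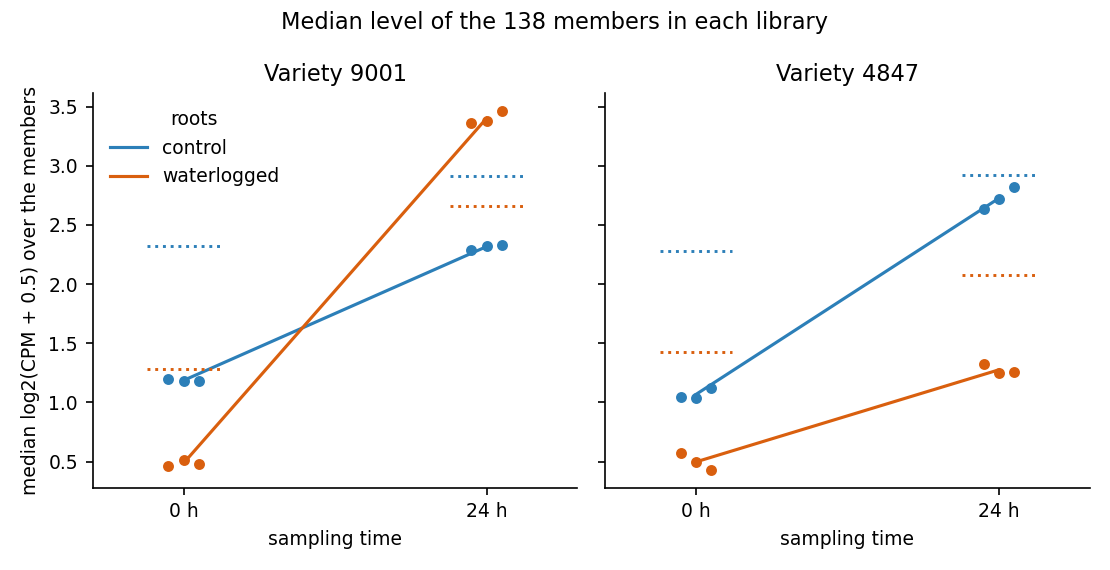
Median log2(CPM + 0.5) over the 138 members in each library (points), with lines joining the group means at 0 h and 24 h, for control (blue) and waterlogged (orange) roots of each variety. Dotted bars are the group means of the same median over all tested genes. The waterlogged 9001 libraries at 24 h lie between 3.36 and 3.46, above every other library, and those of waterlogged 4847 between 1.25 and 1.33.

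The largest relative contrast between the varieties among the named members belonged to Ghir_A11G029610, on chromosome A11. In 9001 at 24 h its control libraries held 15.9, 16.4 and 16.0 CPM and its waterlogged libraries 30.2, 33.5 and 32.3 CPM. In 4847 at 24 h the control libraries held 64.3, 55.5 and 61.4 CPM and the waterlogged libraries 3.17, 3.48 and 1.89 CPM. The groups did not overlap in either variety, and control 4847 was the highest of the 4 groups and waterlogged 4847 the lowest. R24 was 0.97 in 9001 and -4.19 in 4847, or 1.22 and -3.50 with TMM scaling.

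At 0 h the same gene was nearly silent in waterlogged roots of both varieties. The 3 waterlogged libraries held 0.109, 0.0273 and 0.0534 CPM in 9001, which is 7 counts in all, and 0.332, 0.0814 and 0.137 CPM in 4847, which is 20 counts. The controls at 0 h held 1.76, 1.21 and 1.27 CPM in 9001 and 7.88, 10.1 and 9.09 CPM in 4847. Every waterlogged library lay below every control library of its variety, and every control library of 9001 lay below every control library of 4847. The fall under waterlogging was -3.59 (log2, SE 0.442, adjusted p = 9.72e-10) in 9001 and -4.93 (SE 0.246, adjusted p = 2.75e-22) in 4847, by edgeR's quasi-likelihood test with Benjamini-Hochberg adjustment over all tested genes. The difference between these responses, 1.34 on the log2 scale, did not pass the test (adjusted p = 0.284, edgeR). It passed with limma on log2(FPKM + 1), at 1.65 (adjusted p = 4.18e-08), and on log2(FPKM + 0.1), at 2.01 (adjusted p = 5.05e-05), and in edgeR it ran from 0.74 to 2.06 with 1 library left out, without passing. In control roots at 0 h the gene was lower in 9001 by -2.68 (log2, SE 0.159, adjusted p = 5.92e-18, edgeR).

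Ghir_D10G012050, on chromosome D10, had a similar contrast at 24 h from a less different start. In 9001 its control libraries at 24 h held 14.0, 13.1 and 11.1 CPM and its waterlogged libraries 25.1, 24.7 and 24.8 CPM. In 4847 its control libraries held 32.9, 32.2 and 31.0 CPM and its waterlogged libraries 2.05, 2.05 and 1.48 CPM. The 4 groups at 24 h were separate from one another, and R24 was 0.94 in 9001 and -3.78 in 4847.

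At 0 h the controls of the varieties were close, at 12.9, 10.3 and 11.4 CPM in 9001 and 13.8, 12.8 and 13.4 CPM in 4847. Waterlogged roots held 2.93, 3.33 and 2.46 CPM in 9001 and 2.08, 2.63 and 1.72 CPM in 4847, and these ranges overlapped. Ghir_D10G012050 fell under waterlogging by -1.13 (log2, SE 0.131, adjusted p = 1.88e-10) in 9001 and by -1.96 (SE 0.136, adjusted p = 3.78e-17) in 4847 in the edgeR fit. The responses differed by 0.82 (SE 0.194, adjusted p = 0.00137, edgeR), a smaller fall in 9001, which is under 2-fold. In waterlogged roots at 0 h the level was higher in 9001 by 0.60 (log2, adjusted p = 0.00278, edgeR), which did not pass with limma on log2(FPKM + 1), at 0.20 (adjusted p = 0.0802). Its level in waterlogged 4847 at 24 h, 1.86 ± 0.328 CPM, stood near the 2.14 ± 0.458 CPM of waterlogged 4847 at 0 h (SD, n = 3), whereas in waterlogged 9001 the mean went from 2.91 ± 0.436 to 24.9 ± 0.193 CPM.

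Ghir_A11G017800, also on chromosome A11, had the largest R24 in 9001 among the members that could be named, 2.66, with -2.24 in 4847. In 9001 at 24 h its control libraries held 11.3, 12.1 and 11.7 CPM and its waterlogged libraries 77.0, 75.5 and 77.6 CPM. In 4847 at 24 h its control libraries held 30.0, 27.2 and 30.1 CPM and its waterlogged libraries 4.76, 6.10 and 6.39 CPM. None of the groups overlapped, and waterlogged 9001 stood highest. With TMM scaling R24 was 2.91 and -1.56.

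Unlike the previous genes, Ghir_A11G017800 was already high at the end of waterlogging. Waterlogged libraries at 0 h held 19.1, 19.0 and 21.3 CPM in 9001 and 11.4, 10.8 and 13.0 CPM in 4847. The controls at 0 h held 0.237, 0.314 and 0.416 CPM in 9001 and 0.678, 0.698 and 0.812 CPM in 4847. Its rise under waterlogging was 6.78 (log2, SE 0.146, adjusted p = 2.18e-36) in 9001 and 4.68 (SE 0.135, adjusted p = 2.12e-31) in 4847 in the edgeR fit. The difference of 2.10 between these responses passed the test (SE 0.282, adjusted p = 1.28e-07, edgeR). Part of it lay in the controls, which were lower in 9001 by -1.18 (adjusted p = 0.00123, edgeR), and part in the waterlogged roots, which were higher in 9001 by 0.92 (adjusted p = 6.02e-12, edgeR). From 0 h to 24 h the waterlogged mean went from 19.8 ± 1.26 to 76.7 ± 1.11 CPM in 9001 and from 11.7 ± 1.13 to 5.75 ± 0.868 CPM in 4847 (SD, n = 3).

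Ghir_A13G015640, on chromosome A13, had R24 values of 2.62 and -2.39. In 9001 at 24 h its control libraries held 2.52, 3.10 and 3.30 CPM and its waterlogged libraries 20.4, 21.1 and 21.2 CPM. In 4847 at 24 h its control libraries held 10.9, 10.3 and 11.5 CPM and its waterlogged libraries 1.63, 0.713 and 2.65 CPM. The waterlogged 4847 libraries of this gene spread widely, but the groups within a variety did not overlap.

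At 0 h Ghir_A13G015640 was rare, with 2 counts in 1 of the 3 control libraries of 9001 and none in the others, and 19 counts over the 3 control libraries of 4847. Waterlogged libraries held 1.25, 1.01 and 0.855 CPM in 9001 and 1.52, 1.49 and 1.15 CPM in 4847. The ratio of control to waterlogged level in 9001 was 0.0168, with an exact 95% interval of 0.00201 to 0.0622 that covers counting error only. The rise was 6.49 (log2, SE 0.577, adjusted p = 9.42e-14) in 9001 and 3.72 (SE 0.370, adjusted p = 3.04e-12) in 4847, by edgeR. The difference between these, 2.77 (SE 0.984, adjusted p = 0.0406, edgeR), rested on those few control counts. Without the 1 control library of 9001 that held counts it was 5.36, and without another of the 12 libraries it lost its call in 6 cases (adjusted p 0.0588 to 0.137, edgeR).

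**Figure D3:**
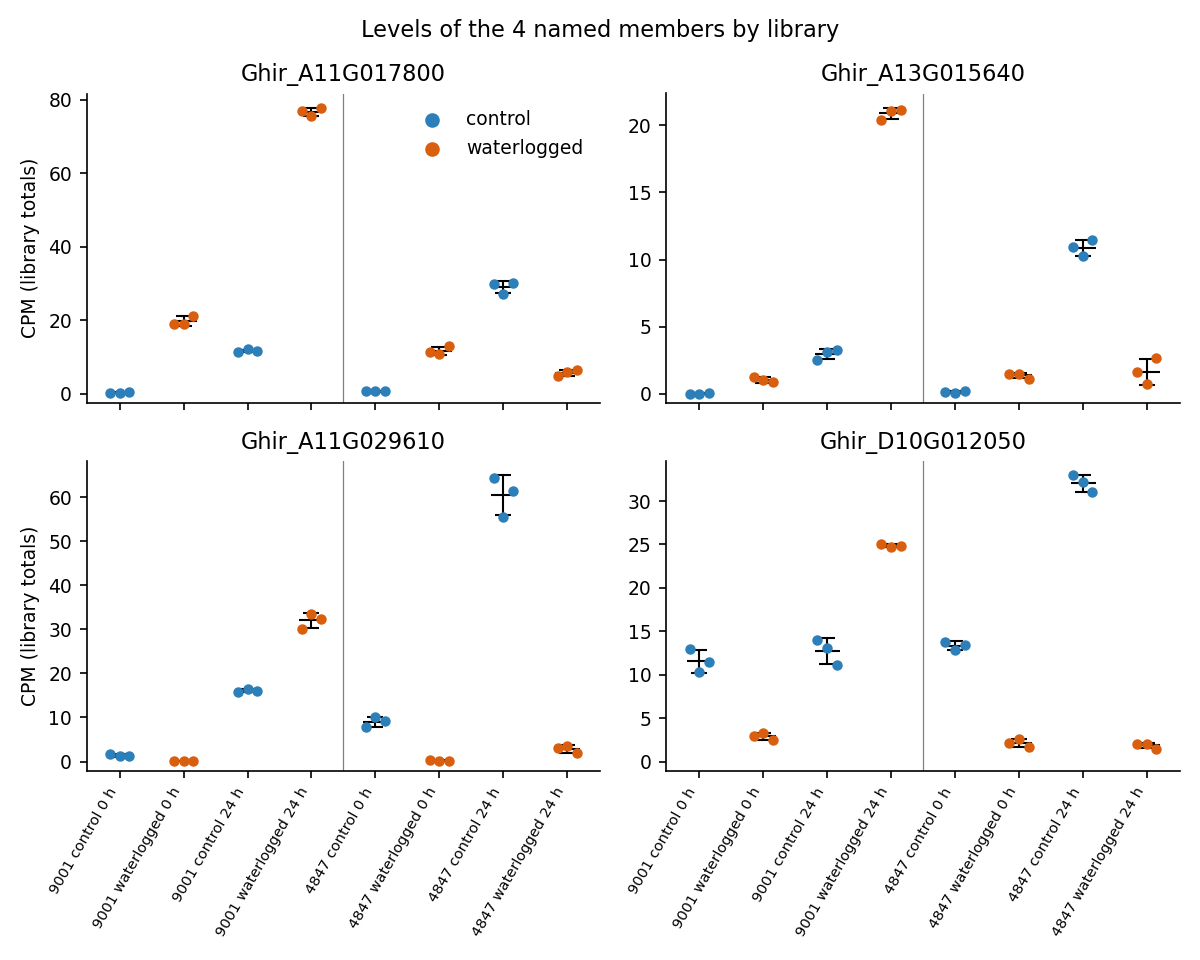
CPM on library totals of the 4 named members in each of the 24 libraries (points; blue control, orange waterlogged), with the mean and SD of each group of 3, with separate vertical scales. The upper genes were higher in waterlogged than in control roots at 0 h in both varieties and the lower genes lower, and in all 4 the waterlogged libraries at 24 h lie above the control in 9001 and below it in 4847.

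Compared per transcript length, waterlogged 9001 at 24 h held a mean of 72.6 FPKM of Ghir_A11G017800, 17.5 FPKM of Ghir_A11G029610, 13.5 FPKM of Ghir_A13G015640 and 8.27 FPKM of Ghir_D10G012050. A member on chromosome A07 was the most abundant there, at 224 FPKM. Its 24 h libraries held 130, 128 and 127 CPM in control and 337, 337 and 321 CPM in waterlogged 9001. In 4847 they held 259, 255 and 258 CPM in control and 106, 104 and 98.2 CPM in waterlogged roots. The control groups of this A07 member thus stood apart too, with 4847 at 258 ± 1.97 CPM and 9001 at 128 ± 1.41 CPM (SD, n = 3).

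The largest R24 of all in 9001, 3.37, belonged to a member on chromosome A03 whose means at 24 h stayed under 5 CPM in 4847. Its waterlogged 9001 libraries at 24 h held 13.4, 15.8 and 16.6 CPM, against 0.668, 1.14 and 1.28 CPM in control 9001. In 4847 the same gene held 4.87, 5.37 and 4.12 CPM in control and 2.24, 2.81 and 1.30 CPM in waterlogged roots. At 0 h it was highest in control 4847, at 17.7 ± 0.760 CPM, and held 1.79 to 2.93 CPM as means of the other 3 groups. Its response at 0 h differed between the varieties by 2.10 (log2, SE 0.293, adjusted p = 3.22e-07, edgeR). It fell by -1.95 in 4847 (adjusted p = 9.85e-13, edgeR), and the change of 0.15 in 9001 did not pass the test (adjusted p = 0.558, edgeR). The direction in 9001 depends on the scaling. On the TMM scale it was a rise, whereas the mean FPKM went from 2.12 in control to 1.30 in waterlogged 9001.

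The order of the 4 group means at 24 h was the same for most members, and the rule fixes part of it. In every member the rule places waterlogged 9001 above control 9001 and control 4847 above waterlogged 4847. The counts of orders are therefore descriptions, given without a share over all tested genes. For 98 members the order ran from waterlogged 9001 through control 4847 and control 9001 down to waterlogged 4847, and for 23 the controls were in the other order. Waterlogged 9001 was the highest of the 4 for 126 members and waterlogged 4847 the lowest for 130. Over all 8 groups, waterlogged 9001 at 24 h was the highest for 103 members. The remaining 35 peaked in a 0 h group or in control 4847 at 24 h, among them 10 in control 4847 at 0 h and 6 in control 9001 at 0 h.

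The controls at 24 h were not level between the varieties. Control 9001 was lower than control 4847 for 115 of the 138 members and higher for 23, with a median log2 gap of -0.37 against -0.02 over all tested genes. At least a 2-fold gap was found for 19 members, all lower in 9001, where 1.07% of all tested genes were that much lower and 1.67% that much higher. Of these 19, 9 were called lower in 9001 controls at 0 h by edgeR, beside 1.47% of all tested genes. Of the 138, 15 were called higher in 9001 controls at 0 h, beside 2.55%, and 7 of those 15 were lower in control 9001 at 24 h. The 19 were picked on 24 h libraries that chose the members, so nothing is read from these counts. The median gap was -0.35 with TMM scaling and also with RLE scaling.

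In waterlogged roots at 24 h the gap was larger and of the other sign. All 138 members were higher in 9001, 135 of them at least 2-fold, as were 21.1% of all tested genes, and no member was that much lower, beside 3.73% of all tested genes. The median log2 gap was 2.04 with library totals, beside 0.38 over all tested genes, and 1.64 with TMM scaling, beside 0.06. Both gaps share libraries with the rule and are descriptions.

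From 0 h to 24 h most members were higher at the later time in all 4 series of roots, and waterlogged 4847 held the most that were lower, 48 of 138 against 8 in waterlogged 9001. In control roots the median log2 change was 1.42 in 9001 and 1.87 in 4847, beside 0.41 and 0.42 over all tested genes. In waterlogged roots it was 2.97 in 9001 and 0.94 in 4847, beside 0.81 and 0.27. With TMM scaling the 4 medians were 0.99, 1.41, 2.37 and 0.70 in the same order, beside 0.05, 0.05, 0.14 and 0.05 over all tested genes, so the order of the 4 series was kept.

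At least 2-fold higher at 24 h than at 0 h were 86 members in control 9001 (28.2% of all tested genes) and 98 in control 4847 (30.3%), and 86 members met this in both. At least 2-fold lower were 14 members in control 9001 (7.68%) and 10 in control 4847 (8.36%). In waterlogged 9001 113 members were that much higher (44.8%) and 3 lower (9.39%). In waterlogged 4847 67 were that much higher (27.6%) and 27 lower (12.3%). The change was larger in waterlogged 9001 than in waterlogged 4847 for 137 of the 138 members. It was larger in waterlogged 9001 than in its own control for 115, and smaller in waterlogged 4847 than in its own control for 96. No share over all tested genes is given for these last counts or for the 86 in both controls. All of them use 24 h libraries that chose the members, so nothing is read from them.

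A group of 9 members moved at least 2-fold up in waterlogged 9001 and at least 2-fold down in waterlogged 4847 between 0 h and 24 h. By contrast, 67 members moved at least 2-fold up in waterlogged roots of both varieties. R24 compares waterlogged with control roots at 24 h and does not measure this movement. Set against the control roots at 0 h, waterlogged roots at 24 h stood at a median log2 difference of 2.40 in 9001 and 0.39 in 4847 with library totals, and of 2.18 and 0.55 with TMM scaling. With library totals, waterlogged roots at 24 h lay above that control level for 125 members in 9001. In 4847 they lay above it by at least 2-fold for 40 members and below it by at least 2-fold for 33. Over all tested genes the median log2 difference was 0.18 in 9001 and -0.12 in 4847 with library totals. The counts in this paragraph use 24 h libraries that chose the members, and no share over all tested genes is given for them.

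The libraries at 0 h, taken before recovery, allow tests that the choice of members did not use. A gene was called where edgeR's adjusted p was under 0.05 and the change at least 2-fold on the TMM scale. With library totals in place of TMM the median of all tested genes would lie -0.86 from its TMM value for waterlogging in 9001 and -0.67 in 4847, so the fold changes below are relative to the bulk of the genes.

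Waterlogging at 0 h raised 34 members and lowered 50 in 9001, beside 25.8% of all tested genes called higher and 29.8% called lower. In 4847 it raised 37 and lowered 51, beside 25.0% and 27.2%. As shares of the 138, these are 24.6% and 36.2% in 9001 and 26.8% and 37.0% in 4847, so the share called higher is near the background and the share called lower somewhat above it. Among the 47 genes of the opposite pattern, 8 were called higher and 28 lower in 9001, and 8 and 26 in 4847. Scaled by library totals alone, the counts of members were 26 higher and 76 lower in 9001, and 33 and 67 in 4847. With limma on log2(FPKM + 1) they were 14 and 41 in 9001, and 16 and 31 in 4847. The shares over all tested genes above are from the TMM fit, so they do not serve as background for the counts under these other settings.

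The median log2 change of the members was -0.49 in 9001 and -0.48 in 4847, beside -0.13 and -0.06 over all tested genes. With members that had no counts in a group set at the bound given by 3 counts over that group, the medians were -0.50 and -0.46. In both varieties 30 members were called higher, beside 21.6% of all tested genes, and 37 were called lower, beside 23.7%. A further 36 were called in 1 variety, 34 in neither, and 1 in opposite directions, and no share over all tested genes is given for these last classes. The set therefore held genes with every kind of response at 0 h.

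**Figure D4:**
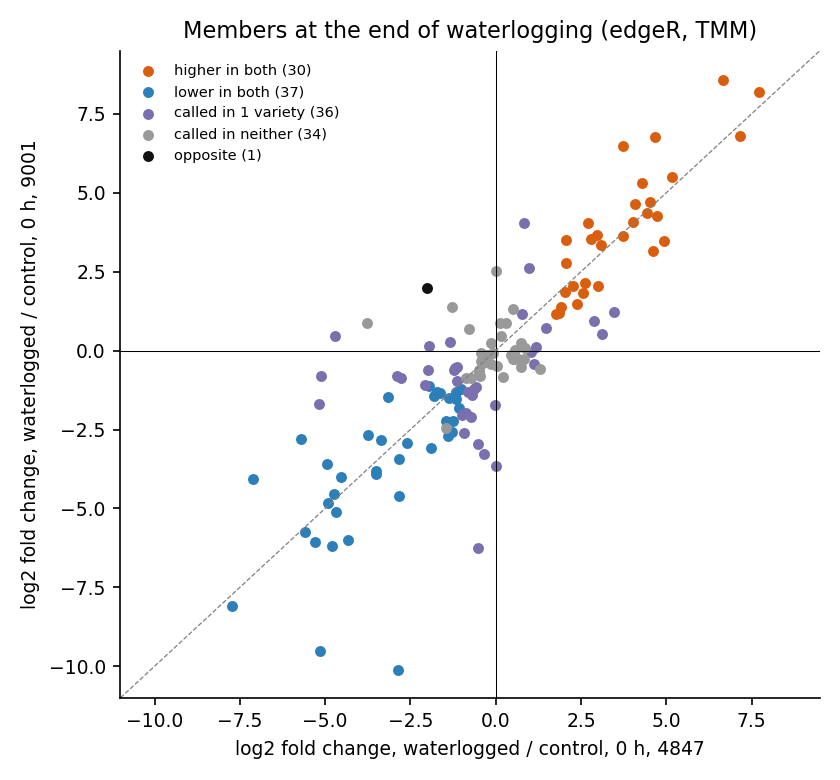
Fitted log2 fold change of waterlogged over control roots at 0 h for each member in 9001 (vertical) and in 4847 (horizontal), from edgeR with TMM scaling, coloured by call. Points far from 0 can rest on groups with few or no counts. The members spread along the dashed line of equal change in both directions, with 30 called higher and 37 called lower in both varieties.

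The 30 members called higher in both varieties had a median of 0.755 CPM in control and 5.05 CPM in waterlogged 9001 at 0 h, and 0.725 and 4.93 CPM in 4847. At 24 h their medians were 4.27 CPM in control and 10.1 CPM in waterlogged 9001, and 5.61 and 2.17 CPM in 4847. From 0 h to 24 h in waterlogged roots, 13 were at least 2-fold higher and 3 lower in 9001, while 3 were higher and 13 lower in 4847. Of all 10949 tested genes called higher in both varieties, 11.3% were at least 2-fold higher and 37.7% lower in 9001, and 8.60% and 42.6% in 4847. These members were thus high in waterlogged roots of both varieties at 0 h and their position relative to the control at 24 h is fixed by the rule.

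The strongest rises at 0 h among them were on chromosomes D02 and D07. The D02 member with the largest rise went from 1.66, 1.55 and 1.64 CPM in control to 323, 364 and 334 CPM in waterlogged 9001, and from 4.54, 4.24 and 4.42 CPM to 275, 289 and 278 CPM in 4847. The log2 changes were 8.57 (SE 0.0785, adjusted p = 1.48e-50) and 6.67 (SE 0.0687, adjusted p = 1.4e-48), and their difference of 1.90 also passed the test (SE 0.124, adjusted p = 4.33e-16, all edgeR). At 24 h this D02 member held 46.4 ± 1.31 CPM in control and 87.5 ± 1.60 CPM in waterlogged 9001, and 167 ± 2.76 and 27.4 ± 2.37 CPM in 4847 (SD, n = 3).

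The D07 member had the highest level per length of all members at 0 h, a mean of 699 FPKM in waterlogged 9001 and 737 FPKM in waterlogged 4847. Its waterlogged libraries at 0 h held 555, 673 and 608 CPM in 9001 and 580, 677 and 678 CPM in 4847, against 3.79 ± 0.457 and 4.92 ± 0.180 CPM in the controls (SD, n = 3). Waterlogged levels at 0 h did not pass the test between the varieties (log2 0.09, SE 0.0568, adjusted p = 0.256, edgeR). At 24 h the waterlogged libraries held 57.2, 52.5 and 53.8 CPM in 9001 and 11.7, 10.6 and 10.8 CPM in 4847, beside 18.9 ± 0.453 and 19.7 ± 1.00 CPM in the controls. The gene was thus lower at 24 h than at 0 h in waterlogged roots of both varieties, and lay above its control in 9001 and below it in 4847.

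The 37 members called lower in both varieties were the mirror image at 0 h. Their medians at 0 h were 6.03 CPM in control and 0.242 CPM in waterlogged 9001, and 6.81 and 0.338 CPM in 4847. At 24 h they were 7.54 CPM in control and 18.2 CPM in waterlogged 9001, and 8.69 and 2.32 CPM in 4847. In waterlogged roots 36 of the 37 were at least 2-fold higher at 24 h than at 0 h in 9001, and 29 were in 4847. Of all 11995 tested genes called lower in both varieties, 82.0% were at least 2-fold higher at 24 h in 9001 and 57.4% in 4847. The grouping by a low waterlogged level at 0 h bears on these counts, and the position relative to the control at 24 h is fixed by the rule.

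An example on chromosome A01 held 116, 118 and 123 CPM in control and 5.65, 3.36 and 4.06 CPM in waterlogged 9001 at 0 h. In 4847 it held 114, 109 and 111 CPM in control and 5.46, 7.00 and 5.90 CPM in waterlogged roots. The falls were -3.92 (log2, SE 0.0939, adjusted p = 1.4e-34) and -3.51 (SE 0.0894, adjusted p = 1.9e-33, edgeR). At 24 h the waterlogged mean was 120 ± 0.298 CPM in 9001 and 46.2 ± 4.83 CPM in 4847, beside controls of 66.9 ± 5.57 and 90.9 ± 2.34 CPM (SD, n = 3).

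The 34 members called in neither variety at 0 h had medians of 2.90 CPM in control and 1.42 CPM in waterlogged 9001, and 3.07 and 2.34 CPM in 4847. In waterlogged roots 29 of them were at least 2-fold higher at 24 h than at 0 h in 9001, and 14 were in 4847, where 8 were at least 2-fold lower. Over all tested genes of any class, 44.8% were that much higher in waterlogged 9001. In waterlogged 4847 27.6% were that much higher and 12.3% lower. The rule used the 24 h levels, so nothing is read from these counts. A member of this class on chromosome D11 had no counts in control roots of either variety or in waterlogged 4847 at 0 h, and 1 count in waterlogged 9001. At 24 h that gene held 2.88, 4.91 and 4.51 CPM in control and 9.56, 7.46 and 8.33 CPM in waterlogged 9001, and 9.20, 5.68 and 7.16 CPM in control and 0.187, 0.267 and 0.630 CPM in waterlogged 4847. It was thus detected almost only in the 24 h libraries.

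**Figure D5:**
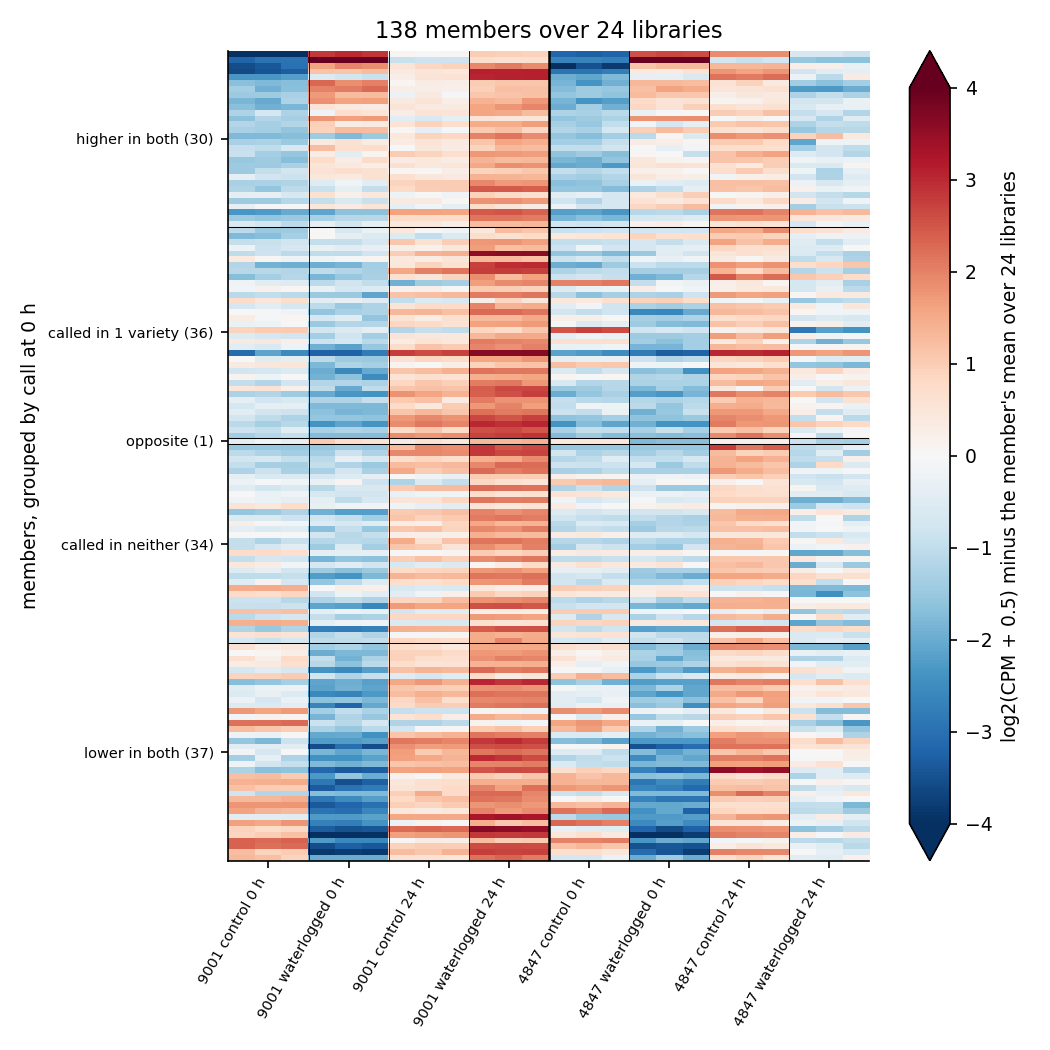
The 138 members (rows) over the 24 libraries (columns, in groups of 3), as log2(CPM + 0.5) minus each member's mean over all libraries, with red above and blue below that mean and colours cut at 4. Rows are grouped by the call at 0 h, with 30 higher in both varieties at the top and 37 lower in both at the bottom. The waterlogged columns at 0 h differ between these row groups, whereas the 24 h waterlogged columns are red in 9001 and pale or blue in 4847 for most rows.

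The response to waterlogging at 0 h differed between the varieties by at least 2-fold for 27 members. It was higher in 9001 for 13, beside 2.78% of all tested genes, and lower in 9001 for 14, beside 3.19%. These are 9.42% and 10.1% of the members, both above the background, and they point in both directions. Among the 47 genes of the opposite pattern 1 was called higher and 4 lower. With library totals the members' counts were 10 higher and 19 lower, and with limma on log2(FPKM + 1) they were 5 and 7. No share over all tested genes is given for these other settings.

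Of the 13 members with a higher response in 9001, 5 were higher in both varieties and 6 were called in 1 variety. Of the 14 with a lower response, 6 were lower in both. The single member called in opposite directions, on chromosome D11, held 2.71, 3.38 and 2.83 CPM in control and 7.96, 6.08 and 5.53 CPM in waterlogged 9001 at 0 h. In 4847 it held 4.93, 5.14 and 5.08 CPM in control and 0.720, 0.814 and 0.820 CPM in waterlogged roots. The responses were 1.99 (log2, SE 0.164, adjusted p = 1.03e-14) and -2.00 (SE 0.202, adjusted p = 4.22e-12), and differed by 3.99 (SE 0.259, adjusted p = 3.61e-16, edgeR). This gene therefore showed at 0 h the same pair of directions that the rule selected at 24 h.

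Between the varieties at 0 h, 15 members were higher in 9001 controls and 9 lower, beside 2.55% and 1.47% of all tested genes, and 4 and 4 with limma on log2(FPKM + 1). In waterlogged roots at 0 h, 14 were higher in 9001 and 12 lower, beside 4.72% and 3.67%. With limma these counts were 0 and 3 on log2(FPKM + 1), where 17 were higher at an unadjusted p under 0.05 at any size, and 4 and 12 on log2(FPKM + 0.1). With library totals in edgeR they were 11 and 17. The shares over all tested genes are from the TMM fit, and none is given for the other settings. Leaving out 1 library of these groups at a time gave 8 to 12 higher, with 8 without replicate 2 of waterlogged 4847. The members' median log2 differences between the varieties, 0.08 in controls and -0.07 in waterlogged roots, were from the TMM fit. With library totals they were 0.09 and -0.23, beside the gaps of -0.37 and 2.04 at 24 h on the same scale, both of which use libraries that chose the members.

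The spread between replicate libraries differed among the groups. The median coefficient of variation of CPM over 3 libraries was 6.08% in waterlogged 9001 at 24 h and 23.5% in waterlogged 4847 at 24 h. It was 9.32% and 7.65% in the 24 h controls of 9001 and 4847, and 14.8% and 15.6% in their 0 h controls. In waterlogged roots at 0 h it was 30.0% in 9001 and 20.4% in 4847.

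The members were spread over the genome, with 67 on A chromosomes and 71 on D chromosomes. The A share, 48.6%, is near the 49.2% of all tested genes. All 26 chromosomes held members, from 2 on A04, D06 and D09 to 11 on A11, which carries 2623 tested genes. Only 2 pairs of members had neighbouring IDs, on A11 and D13. The members' median length, inferred from counts and FPKM, was 1615 bases (quartiles 1248.5 and 2201.5), against 1898 bases over all tested genes (quartiles 1257 and 2771).

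Candidate A and D copies were looked for among members on chromosomes of the same number with ID numbers within 200 of each other, a window chosen after the data had been seen. There were 11 such pairs, 22 members, among 399 possible pairs, and 3 of the 11 had lengths within 5% of each other. No annotation used here pairs the copies, and a count is uncertain for any member whose A and D copies are alike enough to share reads. Within a pair R24 differed by at most 0.54 in 9001 and 1.02 in 4847, and 9 of the 11 pairs had the same sign of response at 0 h in 9001. Both members of a pair had passed the same limits on R24, which narrows the gap between them. Neither value was compared with the other possible pairs, so no likeness of copies is read from them. A pair among the 11 joins the D07 member with the highest level at 0 h to a member on A07 whose rise in 9001 was 3.34 against 8.19 on the log2 scale.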

How the data were processed

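The authors deposited unnormalized counts for each ID, which were used unchanged, and FPKM values, of which 1 malformed line was left out. Each gene's length was inferred as the median over libraries of counts per library total divided by FPKM. With that length FPKM followed counts per library total (largest relative difference 4.97e-09), and the length itself was not checked. For the aligner and the counting tool, nothing is given in the sources used here. The submitters' processing notes name the build mm10, a mouse assembly, so the build behind these cotton counts is not known. Totals ran from 21423479 to 39945111 counts per library. CPM used library totals. Counts were fitted with edgeR 4.0.16 in R 4.3.3 (filterByExpr, TMM scaling, glmQLFit, glmQLFTest), in a single fit of all 24 libraries with each group as a coefficient, leaving 16 residual degrees of freedom and a spread shared by all groups. The 50638 genes tested were adjusted by Benjamini-Hochberg in each of 5 contrasts at 0 h. An SE is the change divided by the square root of its F statistic and is approximate. The fit was tested on simulated data. Alternatives were RLE, upper-quartile and total scaling, no filter, DESeq2 1.42.0, limma 3.58.1 on log2(FPKM + 1) and log2(FPKM + 0.1), the 0 h libraries alone, a replicate block, each library left out, and other limits in the rule. Named are the 2 members with the largest R24 in 9001 and the 2 with the lowest in 4847, with at least 5 CPM in the higher group of each variety and no overlap at 24 h. Members and lists were chosen with earlier results of these data known.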

Additional observations from a re-analysis of the deposited data

Results flagged for a closer look

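The response to waterlogging at 0 h differed between the varieties for 3 of the 4 named members in edgeR's test of the difference itself. The difference, 9001 minus 4847 on the log2 scale, was 2.10 for Ghir_A11G017800 (adjusted p = 1.28e-07), 2.77 for Ghir_A13G015640 (adjusted p = 0.0406) and 0.82 for Ghir_D10G012050 (adjusted p = 0.00137). The call of Ghir_A13G015640 was lost with library totals (adjusted p = 0.0503), with limma on log2(FPKM + 0.1) (adjusted p = 0.394) and without any of 6 libraries, and its difference was -0.054 with limma on log2(FPKM + 1). For the fourth gene, Ghir_A11G029610, the difference did not pass in edgeR (1.34, adjusted p = 0.284) and passed with limma on either FPKM scale (1.65 and 2.01). Both FPKM scales add a constant that shrinks the fall of this gene in 9001. Over all members, 13 had a response at least 2-fold higher in 9001 and 14 a response at least 2-fold lower. The median difference in R24 between the varieties was 3.49 for those 13, 2.45 for those 14 and 2.28 for the members with no such call. R24 chose the members, and no such medians are given over all tested genes. A link between R24 and the response at 0 h was not tested.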

How the results depend on the processing

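Replicate numbers did not pair the libraries: same-numbered libraries of different groups had correlations of their deviations from -0.053 to 0.041, and other pairs from -0.056 to 0.079. With a replicate block, members called higher and lower were 34 and 50 for waterlogging in 9001, 37 and 51 in 4847, 13 and 13 for the difference in response, 14 and 9 between controls, and 11 and 11 between waterlogged roots. With library totals 76 members were lower in waterlogged 9001. With limma on log2(FPKM + 1), which shrinks changes of low genes, 14 were higher in waterlogged 9001, 16 higher and 31 lower in waterlogged 4847, 5 higher and 7 lower for the difference in response, 4 higher and 4 lower between controls, and 0 higher and 3 lower between waterlogged roots, where log2(FPKM + 0.1) gave 4 higher; edgeR gave 14 higher there and DESeq2 16, and at an unadjusted p under 0.05 limma on log2(FPKM + 1) still gave 0 at least 2-fold higher and 17 higher at any size. Leaving out 1 library at a time gave 8 to 12 higher between waterlogged roots. By the rule, TMM scaling chose 91 genes (41 shared with the 138), RLE scaling 76 (43 shared), a pseudocount of 1 CPM 89, a limit of 1.0 on R24 41, and a floor of 5 CPM 79; leaving out 1 library chose 134 to 145, with at least 123 shared. The difference in response of Ghir_A13G015640 was -0.054 with log2(FPKM + 1) (adjusted p = 0.904), and its call was also lost with library totals (adjusted p = 0.0503) and log2(FPKM + 0.1) (adjusted p = 0.394). Its control difference lost its call without any of 3 libraries (adjusted p 0.0921 to 0.102, edgeR). The difference in waterlogging response of Ghir_A11G029610 passed the test in both FPKM settings (1.65 and 2.01, limma). The cause of these shifts was not tested. No share over all tested genes is given for the alternative settings. Depth limits the genes with few counts at 0 h.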
